A study of Mus musculus with 8 samples.

Results

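Myog encodes myogenin, a transcription factor of skeletal muscle, and the results below describe the accessible chromatin around this 1 gene. Its members were chosen by position: every ATAC-seq peak of any library that overlapped the RefSeq body of Myog extended by 50 kb on both sides. That window held 103 of the 603619 peaks of the 8 libraries, which merged into 20 of 141310 regions. The same window was built for 34328 genes, protein-coding or for long noncoding RNAs, of which Myog (gene ID 17928) is 1.

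ATAC-seq cuts accessible DNA with the Tn5 transposase, and a peak marks a stretch where cuts pile up above the local background. The cells were satellite cells, the stem cells of skeletal muscle, taken from the hindlimbs of C57BL/6 mice, with 2 libraries in each of 4 groups. The LncMyod siRNA group was kept in F10 medium with horse serum and received an siRNA against the long noncoding RNA LncMyod for 48 h. The control siRNA group was cultured for differentiation with a control siRNA, and the labels do not state how long that siRNA was applied. The ASC group was isolated 2.5 days after muscle injury, and the QSC group was isolated freshly; neither received an siRNA. No genotype was altered and the labels give no age. Nothing in them states that the 2 libraries of a group stem from different mice or dishes, so p-values reflect library-to-library spread alone, which could be technical. Peak lists do not measure LncMyod RNA, so its knockdown was not checked here.

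Myogenin belongs to the basic helix-loop-helix family of myogenic regulatory factors together with MyoD, Myf5 and Myf6. These factors bind E-boxes as dimers with E proteins, and myogenin acts late, when myoblasts leave the cell cycle, fuse and switch on the genes of the contractile apparatus. Quiescent satellite cells express Pax7 and little or no myogenin, and the Myog promoter is a classical model of muscle transcription through E-box, MEF2 and MEF3 sites.

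Myog lies on the forward strand of chromosome 1, chr1:134290004-134292548 in mm10, and is 2545 bp long, so that its window covered chr1:134240004-134342548. Upstream of it lie the long noncoding RNA genes Gm32221 and Myoparr and the small nuclear RNA gene Gm24517. Myoparr is transcribed away from Myog, from a start site 243 bp upstream of it. Downstream, the window is mostly filled by Ppfia4, a gene of the liprin alpha family on the reverse strand, and the long noncoding RNA gene Gm32267 lies inside the Ppfia4 body. The exons of these genes were not used here.

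The 250 bases before the Myog start site are shown because all 8 libraries had a peak over them. The sequence is the forward strand, from RefSeq on GRCm38.p6 (the assembly of mm10), chr1:134289754-134290003. From 5′ to 3′ the capitals mark an E-box (CANNTG), a MEF3 motif (TCAGGTT), an AT-rich MEF2 site (CTATATTTAT) and a second E-box.
Myog promoter: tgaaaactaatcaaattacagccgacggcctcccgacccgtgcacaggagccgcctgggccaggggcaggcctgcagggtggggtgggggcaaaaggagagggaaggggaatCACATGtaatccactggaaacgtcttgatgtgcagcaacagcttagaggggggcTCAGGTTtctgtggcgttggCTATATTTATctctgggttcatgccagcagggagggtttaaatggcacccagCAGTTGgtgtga

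Counted back from the start site, the first E-box, CACATG, occupied bases -138 to -133 and the second, CAGTTG, bases -12 to -7. The MEF3 motif lay at -84 to -78 and the MEF2 site at -64 to -55, and none of these matches overlapped. Both strands of the same 250 bases were searched in 32851 RefSeq promoters. This set was incomplete, and Myod1, Itga7 and Vcam1 are among the genes it lacked. An E-box stood in 66.2% of them and at least 2 stood in 31.8%. TCAGGTT stood in 3.49% of promoters. CTATATTTAT, which was searched only after the Myog sequence had been read, stood in 23 promoters, 0.07% of the total. It occurred together with the MEF3 motif in 3 promoters: those of Myog, of Myoparr, which reads the same DNA from the other side, and of Sgo2a. The E-box forms CAGCTG (13% of promoters) and CAGGTG (17.2%), the MEF2 motif in its general form (2.92%), the TATA box TATAAA (12.4%) and the AP-1 motif TGANTCA (6.75%) had no match in this window.

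The Myog promoter was accessible in every library, freshly isolated cells included. Region 8 covered the start site, and 433 bp of it, chr1:134289683-134290115, were covered in all 8 libraries. This common stretch reached from 321 bp before the start site to 111 bp after its first base, so it held the whole printed sequence and also the Myoparr start site. The deposited fold enrichment over local background, the authors' value for each peak, was 2.93 and 3.31 in LncMyod siRNA cells, 3.65 and 3.92 in control siRNA cells, 3.28 and 2.39 in ASC, and 3.75 and 3.54 in QSC. The control siRNA and QSC values overlapped and lay above all LncMyod siRNA and ASC values, which overlapped each other, and the second ASC library had the lowest. Fold is set against each library's own background and was not tested between groups. Within its own library, that ASC peak exceeded 6.94% of peaks in fold, while in the other libraries the promoter peak exceeded 33.2% to 50% of peaks. It was thus an ordinary or weak peak in all libraries. Its −log10 q was 17.3 and 12.3 in LncMyod siRNA cells, 24 and 28.8 in control siRNA cells, 4.77 and 1.91 in ASC, and 5.41 and 5.14 in QSC.

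Covered length at the promoter overlapped between all groups. Covered lengths are given after scaling each library to the mean total length of peaks, because peak lists ran from 59666 to 95449 entries and from 42.4 to 64 Mb, and read depth is unknown. Region 8 spanned 817 and 1134.7 scaled bp in LncMyod siRNA cells, 833 and 979 in control siRNA cells, 1036.6 and 523 in ASC, and 625 and 1047.8 in QSC. No comparison of region 8 passed the test described below: the log2 changes were -0.10 ± 0.34 (SE) for ASC against QSC, 0.22 ± 0.34 for control siRNA against ASC, and 0.08 ± 0.34 for LncMyod siRNA against control siRNA, with adjusted p-values of 1, 0.729 and 1. With only peaks of −log10 q of at least 5, which leaves neither ASC library a promoter peak, region 8 was called in ASC against QSC and in control siRNA cells against ASC. Over the body of Myog, peaks averaged 0.563 ± 0.151 scaled kb in LncMyod siRNA cells, 0.46 ± 0.0954 in control siRNA cells, 0.39 ± 0.36 in ASC and 0.375 ± 0.21 in QSC (SD, n = 2 each), and no comparison of the body alone passed the test.

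**Figure D1:**
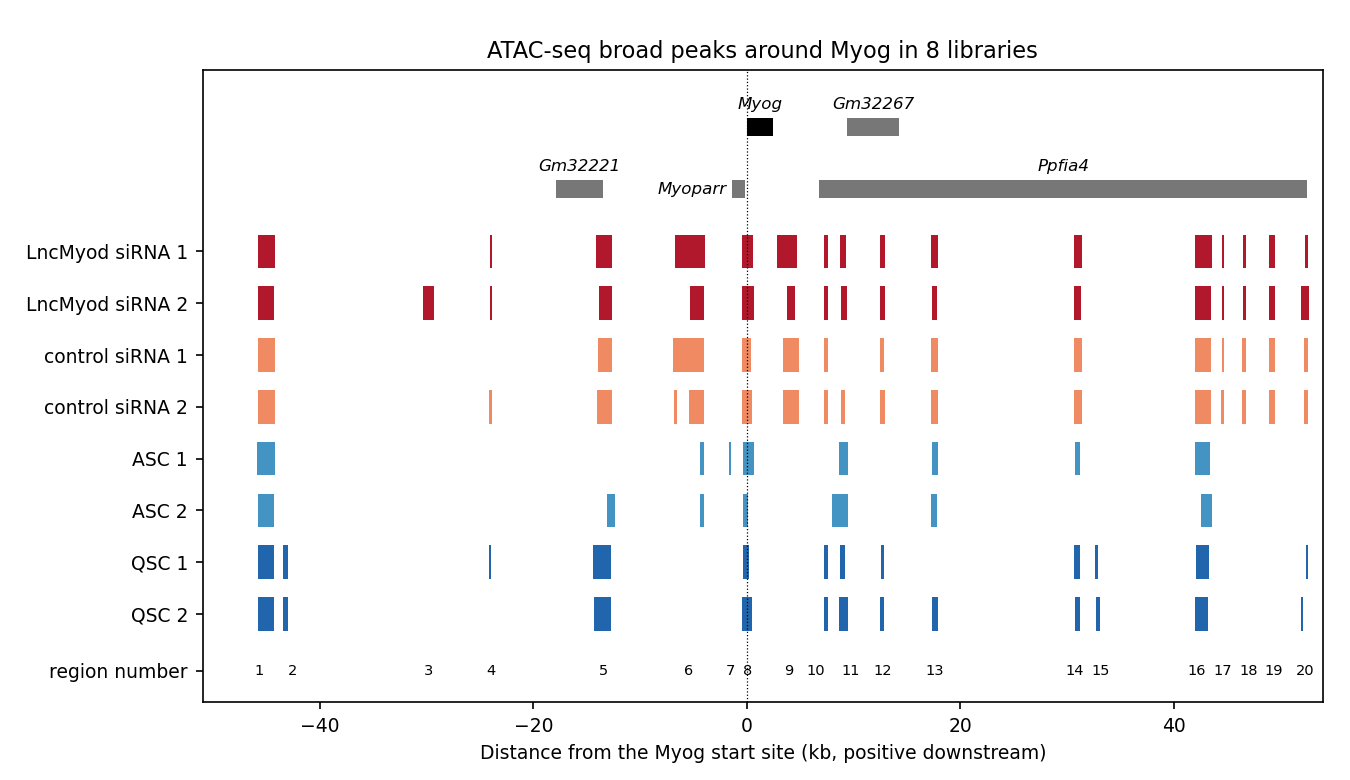
Each row is 1 library and each bar 1 broad peak, placed by distance from the Myog start site in kb; genes are drawn above and the 20 merged regions are numbered below. Region 8 at the start site has a bar in all 8 rows, whereas regions 9 and 17 to 19 have bars only in the 4 cultured rows.

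In covered length of all peaks, groups differed in the wider window: cultured cells had more covered DNA in the Myog window than isolated cells. LncMyod siRNA libraries had 16 and 17 peaks there, control siRNA libraries 14 and 17, ASC libraries 8 and 7, and QSC libraries 12 and 12. The window held 11.6 and 13.3 scaled kb of peaks in LncMyod siRNA cells, 12.9 and 12.6 in control siRNA cells, 6.48 and 7.43 in ASC, and 7.94 and 9.54 in QSC. Both cultured groups were above both isolated groups without overlap, the cultured groups overlapped each other, and QSC lay above ASC in these 4 libraries. The 4 cultured libraries averaged 12.6 ± 0.738 scaled kb and the 4 isolated ones 7.85 ± 1.28 (SD, n = 4 each), a log2 difference of 0.66. An exact two-sided permutation test gave p = 0.0286, the smallest that 70 splits of 4 against 4 allow. Each side pools different groups, so its libraries are not replicates of a single condition. How many other gene windows reach the same p was not counted, so it shows nothing particular to Myog. Culture, siRNA, injury and time differ together in this contrast and cannot be told apart. Without the second LncMyod siRNA library the difference was 0.64, with an exact permutation p of 0.0571.

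Cultured libraries also had the longer peak lists, at 79396 to 95449 peaks against 59666 to 70341 in isolated libraries. With all lists cut to the 59666 peaks of highest −log10 q, the log2 difference between cultured and isolated cells was 0.46, again with the exact permutation p of 0.0286. In these bulk libraries, a site open in more cells and a site more open in each cell cannot be told apart. Nor does a missing peak show that a site was closed.

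**Figure D2:**
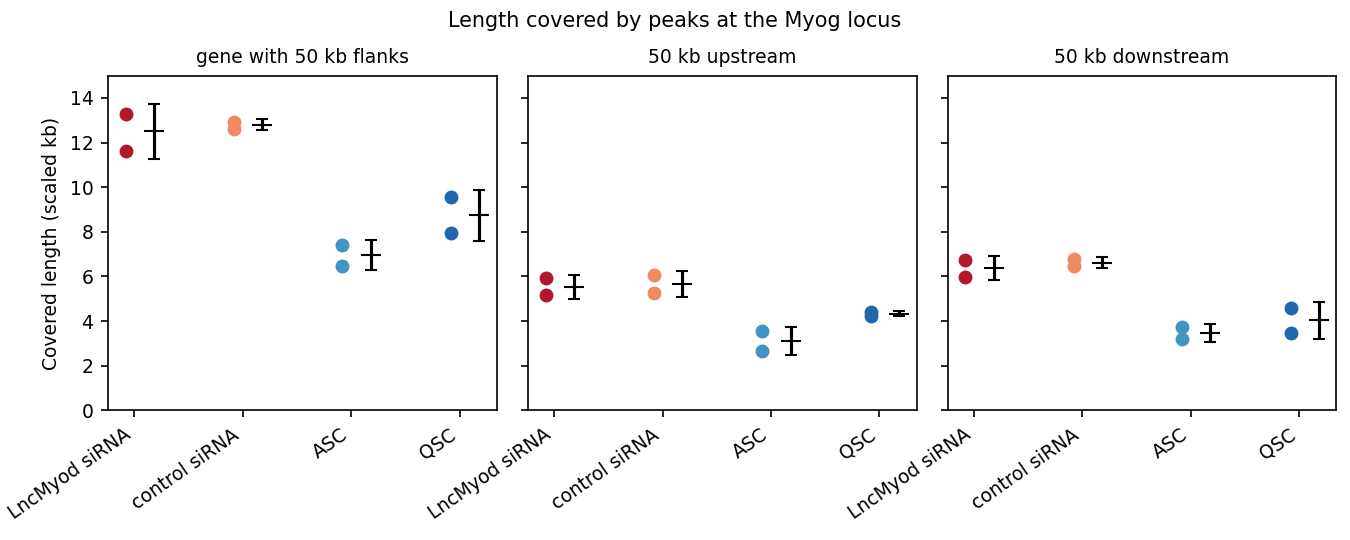
Points are the scaled length of peaks per library, in kb, for the whole Myog window and for its upstream and downstream 50 kb, and the bars beside them are the group mean ± SD of 2 libraries. In the whole window the LncMyod siRNA and control siRNA points sit between 11.6 and 13.3 kb, above all ASC and QSC points.

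Groups were compared with limma on log2(scaled bp + 500), fitted to all 8 libraries and adjusted over 30431 gene windows, with a threshold of 0.05. Changes on this scale understate those of loci with little covered length. The Myog window rose in control siRNA cells against ASC, by 0.83 ± 0.12 (SE) on the log2 scale, or 1.78-fold, with an adjusted p of 0.0132 and a 95% interval of 0.55 to 1.12. Of all gene windows, 5.77% were called in this comparison, 3.22% higher and 2.55% lower, and 3.65% had a larger change than Myog. Means were 12.8 ± 0.256 scaled kb in control siRNA cells and 6.96 ± 0.673 in ASC (SD, n = 2 each). The adjusted p was 0.116 without the first control siRNA library and 0.11 without the second, at log2 changes of 0.81 and 0.85, and 0.0584 with flanks of 10 kb.

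Against QSC, the window also rose in control siRNA cells, by 0.53 ± 0.12 (SE), or 1.44-fold, with an adjusted p of 0.0158 and an interval of 0.24 to 0.81. The QSC mean was 8.74 ± 1.13 scaled kb (SD, n = 2). This is a comparison in which 25.8% of all windows were called, 15.8% higher and 9.95% lower, and 17.6% changed more than Myog. The call was lost without any 1 of 3 libraries: the adjusted p was 0.121 without the first QSC library, 0.096 without the first control siRNA library and 0.082 without the second. It was also not made with lists of equal length (0.31, adjusted p = 0.0626) or with only peaks of −log10 q of at least 5 (0.20, adjusted p = 0.454).

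Between the isolated groups the window did not pass the test. ASC differed from QSC by -0.31 ± 0.12 (SE), with a p of 0.0371 before and 0.109 after adjustment, while 23.3% of all windows were called, 15.1% higher and 8.15% lower. The median of all windows in this comparison was 0.10, so Myog stood against the general direction, and 83.1% of windows had a larger value. The sign was not the same at every distance: with flanks of 10 kb the change was 0.35, with an adjusted p of 0.319. With quantile normalization in place of the scaling the change was -0.39 and passed the test, with an adjusted p of 0.0341.

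Between LncMyod siRNA and control siRNA cells, no change at Myog was detected. The labels describe the culture of these groups in different words and give no siRNA time for the control. A difference in culture or time could not be told apart from the siRNA, here or in the later comparisons of these groups. LncMyod siRNA cells averaged 12.5 ± 1.22 scaled kb and control siRNA cells 12.8 ± 0.256 (SD, n = 2 each), a change of -0.03 ± 0.12 (SE) with an adjusted p of 0.941. The 95% interval of -0.32 to 0.25 leaves room for modest changes in either direction. In this comparison 3 of 30431 windows passed the test, 0.00986%, and 3227 had an unadjusted p under 0.05. Median change over all windows was -0.03, and 50.5% of windows had a larger change than Myog.

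**Figure D3:**
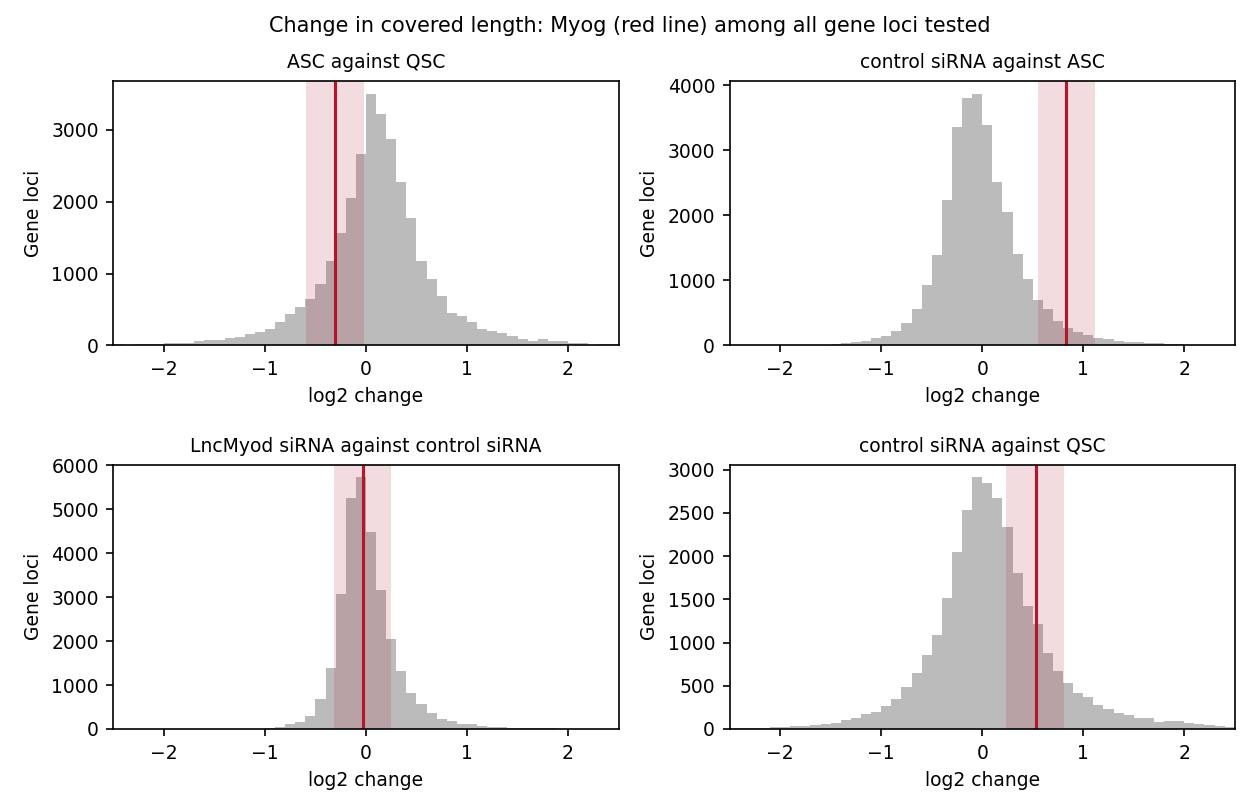
Each panel shows how many gene windows had a given log2 change in covered length, with the change of the Myog window as a line and its 95% interval as a band. The line stands at 0.83 for control siRNA against ASC, to the right of most windows, and at -0.03, in the middle of the distribution, for LncMyod siRNA against control siRNA.

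The gain in cultured cells was present on both sides of the gene. Upstream, peaks covered 5.54 ± 0.527 scaled kb in LncMyod siRNA cells, 5.67 ± 0.587 in control siRNA cells, 3.1 ± 0.638 in ASC and 4.33 ± 0.107 in QSC (SD, n = 2 each). Downstream, the means were 6.38 ± 0.544 scaled kb in LncMyod siRNA cells, 6.62 ± 0.236 in control siRNA cells, 3.47 ± 0.394 in ASC and 4.03 ± 0.817 in QSC. The flanks were tested apart only after these values had been seen. Control siRNA cells were higher than ASC upstream (0.79, adjusted p = 0.0419) and downstream (0.85, adjusted p = 0.0318). Over all genes, 3.82% of the flanks at lower coordinates and 4.73% of those at higher coordinates were called in this comparison. Against QSC the downstream flank passed the test (0.66, adjusted p = 0.0263), where 18.2% of such flanks were called. The upstream flank did not pass (0.35, adjusted p = 0.161), where 18.1% were called. Closest to the gene, within 10 kb, control siRNA cells had 5.23 ± 0.561 scaled kb and QSC 1.95 ± 0.633, a log2 change of 1.25 with an adjusted p of 0.00973, where 16.9% of loci were called. Much of the gain lay in regions 6 and 9, whose wide but weak peaks are described below. Region 6, upstream, averaged 2311.4 scaled bp in control siRNA cells, 386 in ASC and 0 in QSC. Region 9, downstream, averaged 1475.2 scaled bp in control siRNA cells and 0 in ASC and QSC. The sums were not tested with these regions alone left out.

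The 20 regions showed which sites made up these sums. Regions 1, 8 and 16 were held by all 8 libraries, a pattern of 25% of the regions of the genome, and 4 more, regions 5, 11, 13 and 14, lacked a peak in 1 library only. Regions 9, 17, 18 and 19 were held by all 4 cultured libraries and no isolated one, a pattern of 4.78% of all regions. Regions 10, 12 and 20 were held by all cultured and both QSC libraries but by no ASC library, which was true of 1.2% of all regions. Region 6 was held by all cultured and both ASC libraries and by no QSC library (3.22% of all regions), and regions 2 and 15 by both QSC libraries alone (5.18%). Regions 3 and 7 were each seen in 1 library, the second LncMyod siRNA and the first ASC library, and region 4 in 4 libraries of 3 groups.

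Counted by group, 7 of the 20 regions were in both control siRNA libraries and no ASC library, against 11.7% of all regions, and 0 were in both ASC libraries and no control siRNA library, against 2.64%. Against QSC, 5 were specific to control siRNA cells (15.5% of all regions) and 2 to QSC (8.09%). Between isolated groups, 1 was specific to ASC (5.99%) and 5 to QSC (8.54%). Between LncMyod siRNA and control siRNA cells no region was specific to either, against 2.2% and 1.42% of all regions. These counts carry no test, since the smallest p that an exact permutation of 2 and 2 libraries allows is 1 in 3.

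Of the 20 regions, 18 were held by at least 2 libraries and entered a limma fit over 104506 regions on log2(scaled bp + 200); regions 3 and 7 did not. In control siRNA cells against ASC, 7 of the 18 were higher and 0 lower, in a comparison that called 14.4% of all regions, 10.2% higher and 4.16% lower. Against QSC, 5 were higher and 2 lower, where 29.6% were called, 16.5% higher and 13.1% lower. In ASC against QSC, 1 was higher and 4 were lower, where 19.7% were called, 8.23% higher and 11.5% lower. For LncMyod siRNA against control siRNA, limma called 0 of the 18 and 2.99% of all regions, 1.62% higher and 1.37% lower; 0 of the 18 had an unadjusted p under 0.05, and the lowest was 0.107. Without the first LncMyod siRNA library, 2 regions, 9 and 20, passed in that comparison. A region is mostly either absent or as wide as its peak, so these calls mainly follow the presence of a peak. Regions 2 and 15, which are among the 4 and are the 2 lower regions above, passed the filter only through QSC. Regions 9, 17, 18 and 19, which are among the higher ones in control siRNA cells, passed it only through cultured libraries.

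**Figure D4:**
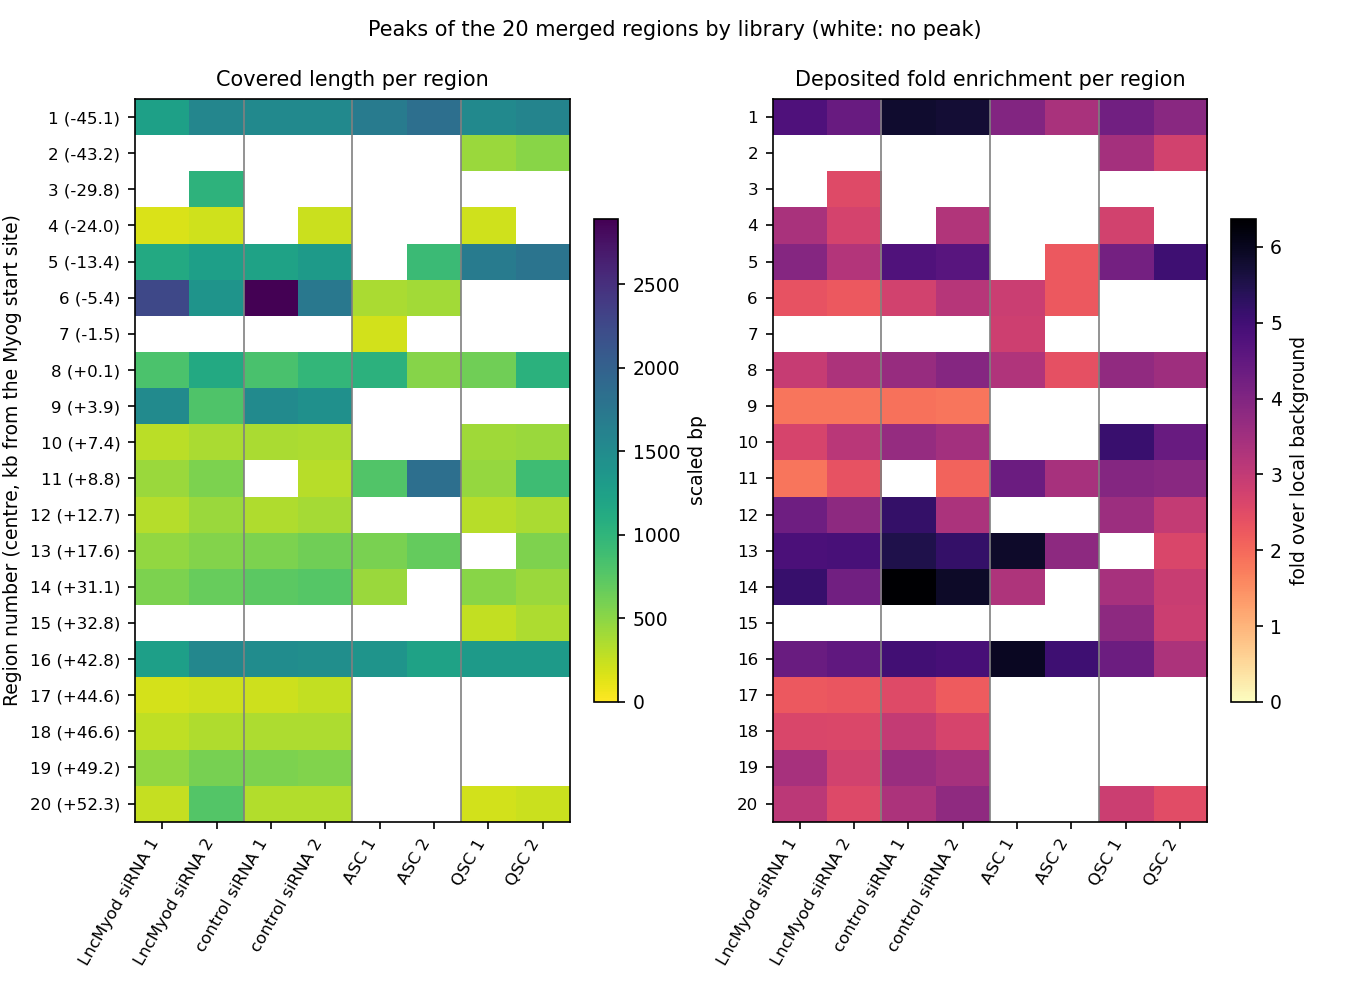
Rows are the 20 regions with their centre in kb from the Myog start site, columns the 8 libraries; the left panel gives the scaled length in bp, the right panel the deposited fold enrichment, and white cells had no peak. The widest cell is region 6 in the first control siRNA library at 2893.1 scaled bp, while the highest fold, 6.37, belongs to region 14 in the same library.

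Region 6, centred at -5.4 kb and not overlapping any annotated gene, changed most in width. Its peaks covered 2262.2 and 1397.5 scaled bp in LncMyod siRNA cells, 2893.1 and 1729.7 in control siRNA cells, and 366 and 406 in ASC, with no peak in QSC. The cultured values were all above the ASC values. The region rose in control siRNA cells against ASC by 2.06 ± 0.30 (SE), with an adjusted p of 0.00804, and passed the test as higher in ASC than in QSC with 0.0187. These wide peaks were weak: their fold was 2.34 and 2.26 in LncMyod siRNA cells, 2.74 and 3.17 in control siRNA cells, and 2.88 and 2.25 in ASC. With lists of equal length the change between control siRNA cells and ASC was -0.77, with an adjusted p of 0.347. Region 6 dropped out of the fit at a −log10 q of at least 5. The call of ASC against QSC was lost without either ASC library (adjusted p = 0.072 without the first, 0.0931 without the second) and without either QSC library (0.112 and 0.115).

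Region 9, centred at 3.9 kb, lay between the 3′ end of Myog and Ppfia4. It covered 1504.9 and 802 scaled bp in LncMyod siRNA cells and 1508.6 and 1441.7 in control siRNA cells, and no ASC or QSC library had a peak there. It was higher in control siRNA cells than in ASC (adjusted p = 0.0014) and QSC (adjusted p = 0.000624). Region 9 entered the fit only through its peaks in cultured cells, so these calls restate that presence and are no separate evidence. Its fold, 1.82 and 1.84 in LncMyod siRNA cells and 1.89 and 1.82 in control siRNA cells, was among the lowest of each library, above at most 0.142% of its peaks. None of its peaks remained at a −log10 q of at least 5, the highest being 3.04, and it also dropped out of the fit with lists of equal length.

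The other 3 regions found only in cultured cells stood together inside the Ppfia4 body. They lay between an internal Ppfia4 start site and the far one, which is beyond the window. Region 17, at 44.6 kb, covered 183 and 223 scaled bp in LncMyod siRNA cells and 222 and 265 in control siRNA cells. Region 18, at 46.6 kb, covered 275 and 346 in LncMyod siRNA cells and 358 and 352 in control siRNA cells. Region 19, at 49.2 kb, covered 466 and 598 in LncMyod siRNA cells and 569 and 549 in control siRNA cells. They were narrow, similar in both siRNA groups, and absent from ASC and QSC. Against ASC their adjusted p-values in control siRNA cells were 0.00207, 0.00151 and 0.00127, and against QSC 0.00105, 0.000704 and 0.000498. All of them entered the fit only through peaks in cultured cells, so these calls restate that presence and are no separate evidence. With only peaks of −log10 q of at least 5, region 17 was no longer called, with an adjusted p of 0.0763 against ASC and 0.0538 against QSC.

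Regions 10 and 12 were present in QSC and in culture and had no peak in ASC. Region 10, at 7.4 kb, covered 294 and 372 scaled bp in LncMyod siRNA cells, 372 and 360 in control siRNA cells, and 417 and 436 in QSC. Its folds in QSC, 5.12 and 4.39, exceeded 73% and 64.2% of the peaks of those libraries. Region 12, at 12.7 kb, covered 325 and 437 scaled bp in LncMyod siRNA cells, 345 and 390 in control siRNA cells, and 315 and 372 in QSC. Both passed the test as lower in ASC than in QSC (adjusted p = 0.00083 and 0.00237) and as higher in control siRNA cells than in ASC (0.0018 and 0.00279). At a −log10 q of at least 5, region 12 passed neither, with adjusted p-values of 0.503 and 0.0894. Region 20, at 52.3 kb, had the same pattern and passed neither test (adjusted p = 0.126 and 0.0662), though it passed both without either LncMyod siRNA library, and its peaks in the QSC libraries did not overlap each other.

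Regions 2 and 15 were the ones seen in QSC alone. Region 2, at -43.2 kb, covered 434 and 518 scaled bp in QSC with folds of 3.44 and 2.74. Region 15, at 32.8 kb, covered 262 and 358 scaled bp in QSC with folds of 3.8 and 2.86. Both entered the fit only through their QSC peaks, so their calls as lower in ASC and in control siRNA cells than in QSC restate that presence and are no separate evidence. With only peaks of −log10 q of at least 5, a single QSC peak of each was left and neither entered the fit.

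The 3 regions whose single highest peak had the highest deposited fold were 14, 16 and 13, all in the Ppfia4 body, just ahead of region 1, whose highest was 5.82. Region 14, at 31.1 kb, had folds of 5.14 and 4.25 in LncMyod siRNA cells, 6.37 and 5.88 in control siRNA cells, 3.29 in the first ASC library and 3.39 and 2.9 in QSC, with no peak in the second ASC library. Its scaled length was 571 and 667 bp in LncMyod siRNA cells, 726 and 759 in control siRNA cells, 432 in the first ASC library, and 516 and 437 in QSC. Its length passed no comparison (control siRNA against ASC 1.41 ± 0.53 (SE), adjusted p = 0.162). At a −log10 q of at least 5 it was called in control siRNA cells against ASC and against QSC. Without the first ASC library it was called in all 3 comparisons that do not involve the LncMyod siRNA, and without the second in control siRNA cells against QSC. Region 16, at 42.8 kb, spanned the internal Ppfia4 start site and had folds of 4.36 and 4.52 in LncMyod siRNA cells, 4.98 and 4.91 in control siRNA cells, 5.96 and 5.03 in ASC, and 4.31 and 3.32 in QSC. Region 13, at 17.6 kb, had folds of 4.85 and 4.89 in LncMyod siRNA cells, 5.52 and 5.19 in control siRNA cells, 5.86 and 3.8 in ASC, and 2.62 in the second QSC library. The first QSC library had no peak there. Its length passed no comparison. At a −log10 q of at least 5, and also with lists of equal length, region 13 was called in ASC and in control siRNA cells against QSC. Fold is relative to each library's own background, so the folds were not tested either.

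The 4 regions not yet described had no call in the fit of all 8 libraries. Region 1, at -45.1 kb, covered 1243.2 to 1837.5 scaled bp in the 8 libraries. Region 5, at -13.4 kb, overlapped the start site of Gm32221 and lacked a peak in the first ASC library. Without the first ASC library it was called in ASC against QSC and in control siRNA cells against QSC, and without the second also in control siRNA cells against ASC. It was also called at a −log10 q of at least 5 in ASC against QSC and control siRNA against ASC. Region 11, at 8.8 kb, overlapped the start site of Gm32267 and had its widest peak in ASC. Only the peaks of both ASC libraries and the second QSC library reached that start site. Region 11 covered 434 and 566 scaled bp in LncMyod siRNA cells and 307 in the second control siRNA library alone. It covered 790 and 1833.9 in ASC, and 459 and 898 in QSC. For control siRNA against ASC its change was -2.16 ± 0.58 (SE), with an adjusted p of 0.0739. With the replicate number as a block, and again at a −log10 q of at least 5, region 11 was called in control siRNA cells against ASC and against QSC. Region 4, at -24.0 kb, was between 163 and 228 scaled bp where it occurred.

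Neighbouring genes, tested on their bodies alone, showed 2 long noncoding RNA genes with calls. Over all gene bodies, 12.1% were called in ASC against QSC, 4.81% in control siRNA cells against ASC and 15.2% in control siRNA cells against QSC. Gm32221 was covered over 0.439 and 0.343 scaled kb in LncMyod siRNA cells, 0.381 and 0.446 in control siRNA cells and 0.85 and 0.869 in QSC, and was listed at 0 in both ASC libraries. It was lower in ASC than in QSC (adjusted p = 0.00253), higher in control siRNA cells than in ASC (0.0149) and lower in control siRNA cells than in QSC (-0.57 ± 0.11 (SE), adjusted p = 0.0195). Gm32267 was lower in ASC than in QSC (-0.63 ± 0.14 (SE), adjusted p = 0.034), at 0.019 and 0.101 scaled kb in ASC and 0.315 and 0.417 in QSC. These calls are not separate from the regions above. The Gm32221 body held part of region 5, which was itself not called, and the second ASC library had its region 5 peak just outside that body. The Gm32267 body held region 12 and only the edge of region 11, whose widest peak was in ASC. Ppfia4 covered 4.79 and 6.42 scaled kb in LncMyod siRNA cells, 5.36 and 5.72 in control siRNA cells, 3.59 and 4.19 in ASC, and 3.65 and 5.02 in QSC, and passed no comparison. Myoparr, known from mouse myoblasts as a promoter-associated RNA that promotes Myog expression, passed none either (adjusted p from 0.455 to 0.989).

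Other regulators of the myogenic programme were set beside Myog by a list of 17 genes, all tested with the same 50 kb flanks. In control siRNA cells against ASC, where Myog rose, 0 of the 17 passed the limma test, beside 5.77% of all windows. Myod1, which encodes the factor that acts before and together with myogenin, averaged 12.4 ± 1.41 scaled kb in control siRNA cells, 9.91 ± 0.82 in ASC and 7.61 ± 0.375 in QSC (SD, n = 2 each). It rose in control siRNA cells against QSC by 0.67 ± 0.12 (SE) with an adjusted p of 0.00501, and its change against ASC was 0.31 with an adjusted p of 0.149. In that comparison with QSC 6 of the 17 were called, 35.3% beside 25.8% of all windows. Of them 3 rose, namely Myod1, Mef2c (0.59) and the E-protein gene Tcf3 (0.49). Another 3 fell: Myf5 (-0.83), its neighbour Myf6 (-0.85), which shares its peaks, and Msc (-0.99), which encodes the repressor musculin. In ASC against QSC, Mef2c (0.52) and Tcf3 (0.47) rose and Msc (-0.87) fell, 17.6% of the list beside 23.3% of all windows. For LncMyod siRNA against control siRNA 0 of the 17 passed, beside 0.00986% of all windows, and the change of Myod1 was -0.30 with an adjusted p of 0.426. Median changes of the list were 0.02 for control siRNA against ASC, 0.03 for control siRNA against QSC, 0.07 for ASC against QSC and -0.15 for LncMyod siRNA against control siRNA, beside -0.05, 0.05, 0.10 and -0.03 over all windows.

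A second list held 17 genes known as targets of myogenin or of late differentiation. In control siRNA cells against ASC, 5 of them rose and 0 fell, which is 29.4% beside the 5.77% of all windows. They were Mymk, the gene of the fusion protein myomaker (log2 change 0.83, adjusted p = 0.0474), the contractile genes Myl1 (1.23, 0.0296), Tnni1 (0.64, 0.0351) and Acta1 (0.89, 0.00721), and the perinatal myosin gene Myh8 (0.92, 0.028). Mymk averaged 14.5 ± 0.342 scaled kb in control siRNA cells and 8.01 ± 1.38 in ASC (SD, n = 2 each). The median of the list was 0.02 beside -0.05 over all windows. Mymx, the gene of the second fusion protein, did not pass (-0.08, adjusted p = 0.701).

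Against QSC, 6 of these 17 rose in control siRNA cells and 2 fell, 47.1% beside 25.8% of all windows called, with a list median of 0.14 beside 0.05 over all windows. Mymk (0.83), Ckm (0.48), Myl1 (1.73), Tnni1 (0.71), Acta1 (1.12) and Smyd1 (0.75) rose, and Myh8 (-0.60) and Musk (-0.51) fell. In ASC against QSC, Smyd1 (0.73) rose and Myh8 (-1.52) and Musk (-0.53) fell, 17.6% of the list beside 23.3% of all windows. For LncMyod siRNA against control siRNA 0 of the 17 passed, with a median of -0.16 beside -0.03. Mymk was at 10.8 ± 3.56 scaled kb in LncMyod siRNA cells and 14.5 ± 0.342 in control siRNA cells (SD, n = 2 each), with an adjusted p of 0.474. The comparisons share groups, so their counts are not independent of each other.

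Among 18940 protein-coding genes whose windows do not overlap that of Myog, the 5 whose log2 covered length followed Myog most closely over the 8 libraries were Septin12 (Pearson r = 0.978), Nudt16l1 (0.971), Otog (0.97), Cdh15 (0.97) and Anks3 (0.966). The 99th percentile of r was 0.88 over all these genes. Septin12, Nudt16l1 and Anks3 are neighbours on chromosome 16 and share peaks. Cdh15, which encodes M-cadherin, an adhesion protein of satellite cells, averaged 10.9 ± 0.652 scaled kb in LncMyod siRNA cells, 10.1 ± 0.0983 in control siRNA cells, 7.53 ± 0.561 in ASC and 8.56 ± 0.987 in QSC (SD, n = 2 each). The Otog body lies 65 kb from that of Myod1 and its window ends 15 kb short of it. These correlations rest on 8 points in 4 groups that share library effects, and they carry no test.

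The labelled cell type was set against markers whose start sites were listed in the promoter table. A marker counted when a peak overlapped any base of its listed promoter, so the peak need not cover the start site. Pax7, Myf5 and Cdh15, the satellite cell and myoblast markers with an entry, had a peak overlapping the listed promoter in 8 of 8 libraries. The endothelial marker Tek and the leukocyte marker Cd68 did too, while the leukocyte markers Ptprc and Itgam and the fibroadipogenic marker Pdgfra had none in any library. These counts were the same in all 4 groups. Of the markers chosen, Tek was the only endothelial and Pdgfra the only fibroadipogenic one with an entry. No glial marker had an entry, so glia were not checked.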

How the data were processed

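ATAC-seq peaks were analysed in 8 libraries of mouse satellite cells. The submitters' processing notes name mm10, MACS2 2.1.1 for peaks, Bowtie2 2.3.2, Trimmomatic 0.36 and SAMtools 1.3, without the settings. The authors deposited 1 list of broad peaks per library. Each deposited peak carries a fold enrichment (a ratio over local background), a −log10 q with its −log10 p, and a score; the last 2 were not used. Without read counts in the lists, depth stays unknown and intervals for counting error were not possible.

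Peaks were merged where they overlapped by at least 1 bp. Covered length per gene (RefSeq, GRCm38.p6) was scaled to the mean library total of 51.2 Mb. Loci with at least 200 bp in at least 2 libraries were tested with limma 3.58.1 in R 4.3.3 (group means of all 8 libraries, trended prior, Benjamini-Hochberg adjustment over all loci), and regions likewise. Values per library were given for the start-site region, for regions past the threshold and for the 3 of highest fold; from the lists, Myod1, Myf5, Myf6, Mymk, Mymx and members past the threshold were named. The members, lists and comparisons were chosen with earlier results of these data known.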

Additional observations from a re-analysis of the deposited data

How the results depend on the processing

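With the replicate number as a block, the changes of the Myog window kept their values and no call on it moved: adjusted p-values were 0.0753 for ASC against QSC, 0.0143 for control siRNA against ASC, 0.926 for LncMyod siRNA against control siRNA and 0.0111 for control siRNA against QSC. Over gene windows, the deviations of the first libraries from their group means correlated between groups at -0.0125 to 0.137. These correlations cannot show whether libraries were paired. The replicate numbers were not taken to pair libraries, because the labels do not say that they mark a shared animal, day or batch. The block called 8 regions in place of 7 for control siRNA against ASC and 8 in place of 7 for control siRNA against QSC, region 11 being the one added in both.

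For cultured against isolated cells the log2 difference was 0.23 over the gene body alone and 0.58 to 0.76 with 1 library left out. For control siRNA against ASC the change missed the threshold with 10 kb flanks (0.90), over the gene body (0.17), with −log10 q of at least 5 (0.59) and in a fit of only the 4 libraries compared (0.83, adjusted p = 0.0611), and was 0.74 to 0.92 with 1 library left out. For control siRNA against QSC it missed the threshold over the gene body (0.15), in the upstream flank (0.35), with −log10 q of at least 5 (0.20) and with equal lists (0.31), and was 0.40 to 0.65 with 1 library left out. ASC against QSC was 0.35 with 10 kb flanks, -0.39 and past the threshold with quantile normalization, and -0.43 to -0.18 with 1 library left out. The sign of LncMyod siRNA against control siRNA turned over the gene body (0.14), with quantile normalization (0.02), with −log10 q of at least 5 (0.10), with equal lists (0.06) and without scaling (0.07), and the range was -0.13 to 0.06 with 1 library left out; none passed. The cause of these shifts was not tested.

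Counts of specific regions moved as follows. ASC-specific regions against QSC numbered 2 with equal lists and 0 when a peak had to cover 50% of the region, and 1 to 2 with 1 library left out; QSC-specific ones numbered 3 at −log10 q of at least 5, 2 within 10 kb, and 5 to 6 with 1 library left out. Control siRNA-specific regions against ASC numbered 3 within 10 kb (7 to 8 with 1 library left out), and ASC-specific ones 1 at −log10 q of at least 5, with equal lists and with the 50% overlap (0 to 1). Control siRNA-specific regions against QSC numbered 2 within 10 kb (5 to 6), and QSC-specific ones 1 at −log10 q of at least 5 and 0 within 10 kb (2 to 3). With 1 library left out, 0 to 2 regions were specific to LncMyod siRNA cells and 0 to 2 passed the test against control siRNA. Region 6 turned to -0.77 for control siRNA against ASC with equal lists. Under 16 alternatives, the 19 calls on single regions were lost 24 times, 11 of them because the region dropped out of the fit, and 42 calls were gained. Of the losses 13 came with −log10 q of at least 5 and 5 with equal lists. Depth is unknown, so absent peaks remain a limit of detection.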

Other observations

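Similarity of the peak maps was also taken for the Myog window alone, as the Jaccard index (shared covered length divided by the union of covered length). In the window, LncMyod siRNA against control siRNA libraries gave 0.667 to 0.848 over 4 pairs, beside 0.698 for the LncMyod siRNA pair and 0.836 for the control siRNA pair. Over the whole libraries the same pairings gave 0.559 to 0.63, 0.523 and 0.692. Control siRNA against ASC libraries gave 0.282 to 0.402 in the window and 0.474 to 0.525 in whole libraries, whereas control siRNA against QSC libraries gave 0.399 to 0.468 in the window and 0.431 to 0.442 in whole libraries. Over whole libraries all ASC values lay above all QSC values, and in the window the highest value was one of QSC. The ranges in the window overlapped, and the difference was not tested.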
